A study of Mus musculus with 574 samples.

Results

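Corin, Ferd3l, Folr1, Vtn, Car4, Ccdc3, Lrtm1 and Nav3 are 8 genes of the early midbrain floor plate, taken from 23706 genes measured in pools of cells and 25489 measured in single cells. They were chosen by their values in these same samples: a lower level at E13.5 (E for embryonic day) than at E10.5 in pools and in cells, a higher level in GFP positive pools, and presence beside Lmx1a and Shh in cells. All cells came from the developing ventral midbrain of C57BL/6 mouse embryos heterozygous for Lmx1a-EGFP, a reporter that puts green fluorescent protein (GFP) under the gene Lmx1a. No group lacked the reporter allele, and the sources used here do not give how it was built. The pools held 100 cells each and numbered 24, with 6 GFP positive and 6 GFP negative pools at E10.5 and the same at E13.5. The single cells numbered 550 and their labels give no GFP class. Those with and without Lmx1a numbered 98 and 39 at E10.5. They numbered 38 and 52 on the next day (E11.5), 90 and 88 on the day after it (E12.5) and 73 and 72 at E13.5.

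The floor plate is the strip of cells along the ventral midline of the neural tube that secretes sonic hedgehog (Shh). In the midbrain, unlike further back, it is neurogenic: floor plate cells that express Lmx1a, Foxa1 and Foxa2 divide and later give rise to dopamine neurons. Corin is a membrane serine protease best known for cleaving the precursor of atrial natriuretic peptide, and an antibody to it is used to sort midbrain floor plate cells. Ferd3l is a basic helix-loop-helix transcription factor of the floor plate. Folr1 is a folate receptor tethered to the outer membrane, Car4 a membrane-tethered extracellular carbonic anhydrase, and Vtn encodes vitronectin, a secreted adhesive protein bound by integrins. Lrtm1 is a leucine-rich repeat membrane protein, Ccdc3 a secreted coiled-coil protein, and Nav3 a neuron navigator that binds microtubules.

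The genes lie apart on 7 chromosomes, with Vtn and Car4 on chromosome 11 (GENCODE positions on GRCm38). Corin spans chr5:72300025-72504473 on the minus strand, Ferd3l chr12:33928425-33929310 on the plus strand and Folr1 chr7:101858331-101870788 on the minus strand. Vtn spans chr11:78499091-78502324, Car4 chr11:84957786-84966044 and Ccdc3 chr2:5137776-5230878, all on the plus strand. Lrtm1 spans chr14:29018208-29033645 on the plus strand and Nav3 chr10:109681259-110456204 on the minus strand. Exons of Corin, Ferd3l and Ccdc3 overlap exons of the opposite-strand genes Gm20647, Gm40383 and Gm26776, and reads of the pairs cannot be told apart because the sources used here give no strand setting of the count.

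Promoters of 6 of the 8 genes were matched in RefSeq (GRCm38.p6), and Folr1 and Nav3 were not. Of these, 5 are shown because they stand for the 2 patterns that follow: Vtn, Lrtm1 and Car4 were close to 0 at E13.5, and Corin and Ccdc3 were not. Each run starts 250 bases before the RefSeq transcript start and ends 30 bases after it, 5′ to 3′ on the strand of the gene. Capitals mark the motif match that was found. For Vtn, Car4 and Corin the RefSeq start differs from the start of the GENCODE span given above. The Car4 and Corin windows lie wholly outside the GENCODE spans of these genes. The windows are chr11:78498870-78499149 for Vtn, chr14:29017958-29018237 for Lrtm1, chr11:84957504-84957783 for Car4 and chr2:5137526-5137805 for Ccdc3 on the plus strand, and chr5:72504511-72504790 for Corin on the minus strand.
Vtn: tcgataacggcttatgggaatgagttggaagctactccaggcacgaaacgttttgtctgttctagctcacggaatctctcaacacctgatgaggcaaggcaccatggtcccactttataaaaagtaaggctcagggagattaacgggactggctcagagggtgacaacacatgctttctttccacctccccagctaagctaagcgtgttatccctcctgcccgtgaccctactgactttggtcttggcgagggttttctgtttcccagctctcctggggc
Lrtm1: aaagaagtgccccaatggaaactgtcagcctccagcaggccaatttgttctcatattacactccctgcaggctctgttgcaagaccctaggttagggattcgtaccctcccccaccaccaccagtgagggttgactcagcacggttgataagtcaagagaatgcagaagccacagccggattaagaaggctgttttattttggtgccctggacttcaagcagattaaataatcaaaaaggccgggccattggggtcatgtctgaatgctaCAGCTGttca
Car4: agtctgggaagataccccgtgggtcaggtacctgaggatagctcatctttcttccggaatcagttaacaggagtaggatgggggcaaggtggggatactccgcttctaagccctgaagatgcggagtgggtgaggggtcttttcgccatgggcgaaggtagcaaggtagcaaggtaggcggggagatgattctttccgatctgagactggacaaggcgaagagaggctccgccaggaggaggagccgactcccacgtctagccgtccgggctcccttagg
Corin: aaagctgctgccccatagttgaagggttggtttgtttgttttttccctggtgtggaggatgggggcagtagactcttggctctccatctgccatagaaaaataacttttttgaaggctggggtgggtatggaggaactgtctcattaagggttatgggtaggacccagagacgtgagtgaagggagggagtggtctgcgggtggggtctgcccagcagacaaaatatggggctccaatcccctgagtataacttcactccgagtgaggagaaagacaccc
Ccdc3: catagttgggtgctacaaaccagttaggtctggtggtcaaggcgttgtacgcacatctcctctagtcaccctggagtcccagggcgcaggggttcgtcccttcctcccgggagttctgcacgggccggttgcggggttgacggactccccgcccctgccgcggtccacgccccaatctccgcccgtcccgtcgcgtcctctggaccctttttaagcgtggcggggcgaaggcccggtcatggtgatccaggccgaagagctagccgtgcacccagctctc
The windows as tabulated, of 300 bases, were searched on both strands for the homeodomain core TAATTA, the forkhead core TGTTTAC and the Gli motif TGGGTGGTC. Also searched were 3 E-boxes, the sites of basic helix-loop-helix factors: CAGCTG was one of them, CATATG was another and CACGTG was the last. None of the 6 motifs contains another. Lrtm1 held CAGCTG 20 bases after its start, a match that 16.3% of 32851 RefSeq promoters held. The other 5 motifs had 0 matches in the 6 windows, against 5.29% of all promoters for TAATTA, 3.65% for TGTTTAC, 0.253% for TGGGTGGTC, 3.92% for CATATG and 7.15% for CACGTG. GC content was 51.7% for Vtn, 49.3% for Lrtm1, 57.3% for Car4, 51.7% for Corin, 66.3% for Ccdc3 and 50.7% for Ferd3l, against a median of 52.7% over all promoters.

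Pools were sequenced to an estimated 1.30 to 3.67 M reads and cells to 0.401 to 7.46 M, and E11.5 cells were the shallowest (median 0.746 M reads and 3567 genes at an RPKM of at least 1). E10.5 cells had the most genes at that level, a median of 5748, against 4266 at E12.5 and 4287 at E13.5. RPKM is the number of reads per kilobase of transcript per M reads. The labels name no embryo, litter or sequencing batch. A p-value from the pools therefore reflects the spread among pools alone, possibly a technical one, and the single cells of a stage count as 1 sample, for which no test is given. The Lmx1a reporter matched the labels: EGFP was between 170.4 and 230.7 RPKM in GFP positive and at most 5.82 in GFP negative pools at E10.5, and between 51.1 and 80.3 against 0 at E13.5. Pericyte and mesenchyme genes, a list of 12, summed to 126.2 to 315.4 RPKM in E10.5 GFP negative pools and to 28.5 to 51.7 in GFP positive ones, where 3 of the 12 were at 0 in every pool. In E10.5 GFP positive pools 10 endothelial genes summed to at most 14.02 RPKM, 10 red blood cell genes to at most 82.8 and 10 microglial genes to at most 1.14, with 2, 2 and 6 of each list at 0 in every pool. Sums reached higher in the E10.5 GFP negative pools, with highest values of 188.4 RPKM for endothelial, 78488 for red blood cell and 654.5 for microglial genes, and 12 neuronal genes summed to 1487 to 2839 RPKM, against 301.1 to 545 in GFP positive pools. The part of these genes' cells in the differences between GFP classes was not tested.

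In GFP positive pools the 8 genes were lower at E13.5 than at E10.5, but they did not share a rate of loss. Vtn, Car4 and Lrtm1 kept 1.07%, 0.112% and 1.32% of their E10.5 mean, Ferd3l and Folr1 kept 9.51% and 10.4%, and Corin, Ccdc3 and Nav3 kept 47.6%, 50.9% and 50.1%. The description as genes lost by E13.5 therefore held for the first 3 and not for the last 3 in the pools. By limma over all tested genes (adjusted p under 0.05) all 8 were called lower in this contrast, where 29.6% of 15871 tested genes were called lower and 22.1% higher. Groups of 6 pools did not overlap for 5 of the 8, against 17.1% of all tested genes with no overlap in that direction. Since the contrast was used to choose the genes, these counts carry no weight, and the values below are a description. In pools, fewer cells that express a gene and less RNA per cell cannot be told apart.

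Vtn was the most abundant of the 8. In the GFP positive pools at E10.5 it read 277.6, 373.2, 425.2, 300.3, 372.1 and 306.3 RPKM in replicates 1 to 6 (mean 342.5 ± 56.5 SD, n = 6), and at E13.5 it read 2.32, 11.7, 2.78, 2.10, 0.321 and 2.86 RPKM (3.68 ± 4.03). Every E10.5 pool was far above every E13.5 pool, and only replicate 2 passed 3 RPKM at E13.5. The log2 difference, on the log2(RPKM + 1) scale used throughout, was -6.53 ± 0.36 (SE). Without E13.5 GFP positive replicate 2 the share kept was 0.606%.

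Lrtm1 read 43.3, 54.3, 53.2, 59.5, 35.4 and 36.8 RPKM in the E10.5 GFP positive pools (47.1 ± 10.01) and 0.381, 0.706, 1.27, 0.979, 0.234 and 0.156 RPKM at E13.5 (0.621 ± 0.442). The groups did not overlap, and the log2 difference was -4.91 ± 0.27. Car4 read 40, 87.2, 55.98, 62.8, 63.2 and 85.9 RPKM at E10.5 (65.8 ± 18.1). At E13.5 it was listed at 0 in 11 of 12 pools, with 0.441 RPKM in GFP positive replicate 2 alone, and the log2 difference in GFP positive pools was -5.93 ± 0.39.

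Ferd3l was the least abundant at E10.5 and the most even, with 13.85, 12.99, 12.02, 13.2, 14.7 and 17.5 RPKM (14.1 ± 1.93). At E13.5 it was at 0 in GFP positive replicates 1 and 4 and between 0.546 and 2.58 in the other 4. Its groups did not overlap and its log2 difference was -2.90 ± 0.34. Folr1 at E10.5 had a lowest value of 125.8, a median of 144.4 and a highest of 321.0 RPKM (175.5 ± 75.2) and read 18.4, 25.1, 13.4, 30.5, 19.9 and 2.79 RPKM at E13.5 (18.3 ± 9.61). Replicate 2 stood above the rest at E10.5, the groups did not overlap, and the log2 difference was -3.36 ± 0.45.

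Corin and Ccdc3 scattered widely between E13.5 pools. Corin read 33.95, 35.1, 47.4, 31.9, 28.7 and 39.1 RPKM at E10.5 (36.02 ± 6.56) and 14.8, 49.6, 8.64, 6.89, 15.4 and 7.57 RPKM at E13.5 (17.1 ± 16.3). Replicate 2 at E13.5 was above every E10.5 pool, the other 5 were below all of them, and the log2 difference was -1.36 ± 0.39. Without that pool the E13.5 mean was 10.7 ± 4.10 RPKM (n = 5), 29.6% of the E10.5 mean. Ccdc3 read 45.1, 65.9, 60.9, 59.7, 48.4 and 73.1 RPKM at E10.5 (58.9 ± 10.53) and 6.90, 62.1, 42.6, 17.7, 34.5 and 15.9 RPKM at E13.5 (29.9 ± 20.5). The groups overlapped through replicate 2 alone, the log2 difference was -1.24 ± 0.45, and without that pool 39.95% of the E10.5 mean was kept. E13.5 GFP positive replicate 2 was also the highest of its group for Vtn and Car4. In that pool roof plate and choroid plexus genes summed to 194 RPKM (89.97 to 165.5 in the other 5), pericyte genes to 11.4 (3.21 to 7.24) and endothelial genes to 19.5 (7.30 to 12.8), while neuronal genes (4660, against 4400 to 4959), Shh (7.79, against 4.92 to 8.92) and Foxa2 (81.2, against 48.99 to 86.5) lay within the range of the others. The part of these markers in the Corin and Ccdc3 values was not tested.

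Nav3 differed from the other 7 in GFP negative pools, where it was higher at E13.5 than at E10.5. In GFP positive pools it read 93.6, 77.7, 90.5, 129.3, 94.4 and 122.9 RPKM at E10.5 (101.4 ± 20.2) and 74.6, 31.8, 95.5, 47.1, 24.7 and 31.4 RPKM at E13.5 (50.9 ± 28.3), groups that overlapped, with a log2 difference of -1.13 ± 0.35. In GFP negative pools it read between 0.812 and 9.31 RPKM at E10.5 (median 5.33) and between 19.1 and 40.5 at E13.5 (median 24.02). These groups did not overlap, and the log2 difference was 2.39 ± 0.35.

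At E10.5 the genes split into 2 sets by their level in GFP negative pools. Folr1, Corin, Ccdc3, Nav3 and Ferd3l stood at 2.12%, 3.72%, 3.995%, 5.04% and 8.06% of their GFP positive mean, with no overlap between classes. Car4, Lrtm1 and Vtn stood at 24.9%, 37.6% and 44.4%. Vtn read 97.3, 141.3, 102.8, 138.9, 118.7 and 312.8 RPKM in GFP negative pools (median 128.8), so that replicate 6 reached into the GFP positive range, and 34.98% of the GFP positive mean was left without it. Lrtm1 lay between 9.32 and 25.5 RPKM there (median 18.2), below all GFP positive pools. Car4 fell into a high and a low set of 3 pools, with 23.2, 23.5 and 37.9 RPKM against 4.33, 4.43 and 4.87. Replicate 6 was the highest of its group for Vtn, Car4, Corin (3.59 RPKM), Ferd3l (2.37), Folr1 (6.10) and Ccdc3 (5.98), and without it the share of Corin was 2.475%. It had a sum of other floor plate genes of 453 RPKM (270 to 358 in the other 5), of pericyte genes of 315.4 (126.2 to 257.3) and of neuronal genes of 1487 (1982 to 2839), with Lmx1a at 1.56 (0.116 to 3.27). Its sums of neural progenitor genes (3622, against 2808 to 3398) and of cell cycle genes (1549, against 1076 to 1436) were also the highest of the group. Vitronectin is also made by pericytes, and the part of pericytes or of progenitors in the pool values was not tested.

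At E10.5 all 8 genes were called higher in the GFP positive class, where 4.51% of tested genes were. At E13.5, 4 of the 8 were called higher (Corin, Ccdc3, Folr1 and Vtn), where 3.42% of tested genes were. Corin then read at most 0.400 RPKM and Ccdc3 at most 2.55 in GFP negative pools, below every GFP positive pool, with log2 differences between classes of 3.74 ± 0.39 and 4.16 ± 0.45. In GFP negative pools over time, 4 of the 8 were called lower (Vtn, Car4, Lrtm1 and Ferd3l), where 26.9% of tested genes were, and 1 higher (Nav3), where 19.7% were. Vtn went there from a median of 128.8 to one of 0.453 RPKM, a log2 difference of -6.60 ± 0.36. In the same pools all 7 testable pericyte genes fell (mean sum 212.2 to 4.26 RPKM, 0 and then 2 of the 12 listed at 0 in every pool), as did all 9 testable microglial genes, 7 of 8 red blood cell genes and 4 of 6 endothelial genes, and their part in the lower Vtn level was not tested. The stage by GFP interaction is negative where the change over time in the GFP positive class lies below that in the GFP negative class. It was called negative for 5 of the 8 (Nav3, Folr1, Car4, Ferd3l and Lrtm1), where 1.90% of tested genes were called. With a pseudocount of 0.1 RPKM in place of 1, only 1 of these 5 calls held, that of Nav3, since the lower pseudocount stretches the differences between values near 0.

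Of 15 other floor plate genes on a list, 11 fell in GFP positive pools between E10.5 and E13.5 and 0 rose (median log2 difference -1.14, against -0.14 for all tested genes). Of all tested genes 29.6% were called lower there and 22.1% higher. The list includes Shh and Lmx1a, which the choice of the 8 genes used. In GFP negative pools 8 of the 15 fell and 0 rose (median -1.17), where 26.9% of tested genes were called lower. The median of the 8 genes in GFP positive pools, -3.13, was set by how they were chosen. In GFP positive pools Shh fell from 65.95 ± 10.7 to 7.43 ± 1.42 RPKM (log2 difference -2.99 ± 0.29, limma adjusted p = 2.82e-09). The Wnt ligand Wnt1 fell from 45.7 ± 9.04 to 5.21 ± 4.30 RPKM (-3.27 ± 0.39, limma adjusted p = 7.68e-08), and the forkhead factor Foxa2 fell from 124.7 ± 13.7 to 71.2 ± 13.52 RPKM (-0.82 ± 0.19, limma adjusted p = 0.000799). The LIM factor Lmx1a itself stood at 72.1 ± 7.95 and 56.6 ± 7.39 RPKM (-0.35 ± 0.27, limma adjusted p = 0.29), its partner Lmx1b at 45.5 ± 5.53 and 65.5 ± 8.96 RPKM (adjusted p = 0.192), the homeobox gene Msx1 at 19.03 ± 5.91 and 21.1 ± 5.94 RPKM (adjusted p = 0.763) and Wnt5a at 147.8 ± 25.02 and 167.5 ± 59.5 RPKM (adjusted p = 0.752). EGFP fell from a mean of 206 to 60.6 RPKM (exact two-sided permutation test, p = 0.002165).

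The make-up of the GFP positive pools changed in the same interval. All 12 neuronal genes on the list rose (median log2 difference 3.15) and all 12 cell cycle genes fell (median -3.66). The tubulin regulator Stmn2, a marker of young neurons, rose from 53.5 ± 29.6 to 919 ± 59.4 RPKM (limma adjusted p = 3.69e-13), and the proliferation marker Mki67 fell from 51.6 ± 4.75 to 4.43 ± 1.77 RPKM (limma adjusted p = 7.87e-10). Of 12 neural progenitor genes 8 fell and 1 rose. The part of this shift in the lower levels of the 8 genes was not tested in the pools, and the single cells described further on give values within cells that lack Stmn2.

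The genes around single members are given as counts in GFP positive pools over time, to be read against the 29.6% of all tested genes called lower and the 22.1% called higher. Counts in GFP negative pools close each paragraph and are to be read against 26.9% and 19.7%. For Vtn, all 6 testable integrin and matrix partners fell (Fn1, Itgav, Itga5, Itgb1, Itgb5 and Itgb8). Itgav, the alpha chain of the vitronectin receptors, fell from 28.2 ± 8.80 to 4.15 ± 2.32 RPKM (limma adjusted p = 2.69e-05), and fibronectin (Fn1) fell from 60.6 ± 6.89 to 7.36 ± 5.13 RPKM (limma adjusted p = 8.24e-11). Of those 6, Fn1 alone was also called higher in GFP positive than in GFP negative pools at E10.5. All 6 fell over time in GFP negative pools as well (median log2 difference -2.06, against -2.22 in GFP positive pools).

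For Folr1, 8 of 12 folate genes fell and 0 rose. Thymidylate synthase (Tyms), an enzyme of nucleotide synthesis that dividing cells use, fell from 190 ± 24.7 to 32.2 ± 17.6 RPKM (limma adjusted p = 4.3e-07). The second folate receptor, Folr2, fell from 4.11 ± 1.64 to 0.681 ± 0.895 RPKM (limma adjusted p = 0.000216) and alone among these 12 was called higher in the GFP positive class at E10.5. The folate carriers Slc19a1 and Slc46a1 stood at 16.3 ± 4.93 and 18.7 ± 9.90 RPKM at E10.5 and at 11.9 ± 5.61 and 15.6 ± 7.75 at E13.5 (limma adjusted p = 0.178 and 0.679). In GFP negative pools 7 of the 12 folate genes fell and 0 rose (median log2 difference -1.20, against -1.22 in GFP positive pools).

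For Car4, 5 of 10 testable carbonic anhydrase and bicarbonate transport genes fell and 3 rose, the latter a share near that of all tested genes (22.1%). Membrane-bound Car14 fell from 75.5 ± 9.44 to 3.44 ± 3.26 RPKM (-4.36 ± 0.42, limma adjusted p = 2.01e-09), or to 4.56% of its E10.5 mean, and was not called between GFP classes at E10.5 (75.5 against 40.4 RPKM, limma adjusted p = 0.164). The catalytically inactive relatives Car10 and Car11 rose, Car11 from 1.34 ± 1.65 to 12.6 ± 5.41 RPKM (limma adjusted p = 8.67e-07). For Ferd3l, 6 of 10 testable Notch and proneural genes fell and 0 rose. The repressor Hes1 fell from 513 ± 41.9 to 44.8 ± 14.3 RPKM (-3.56 ± 0.26, limma adjusted p = 9.91e-12). In GFP negative pools 6 of the 10 genes around Car4 fell and 3 rose. Of the 10 Notch and proneural genes, 9 fell there and 0 rose.

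For Corin, the natriuretic peptide genes were scarce. The precursor gene Nppa had a mean of 0.340 RPKM in the E10.5 GFP positive class, the receptor Npr1 0.0102 and Npr3 0.152, and Nppb was listed at 0. Of 5 testable genes 1 fell, a smaller share than the 29.6% of all tested genes: the protease Furin, from 6.16 ± 3.82 to 2.67 ± 1.66 RPKM (limma adjusted p = 0.0473). For Lrtm1, 3 of 12 testable receptor and leucine-rich repeat genes fell and 4 rose, near the shares of all tested genes (29.6% and 22.1%). The FGF receptor Fgfr2 fell from 121.2 ± 17.9 to 16.4 ± 7.02 RPKM (limma adjusted p = 1.78e-08). Lrtm2, a relative of Lrtm1, rose from 0.0227 ± 0.0556 to 3.79 ± 1.25 RPKM (limma adjusted p = 1.12e-06). For Nav3, both other neuron navigators rose where Nav3 was lower, Nav1 from 5.06 ± 2.35 to 27.1 ± 6.51 RPKM (limma adjusted p = 1.29e-09) and Nav2 from 1.06 ± 0.344 to 2.81 ± 1.04 RPKM (limma adjusted p = 0.0047). In GFP negative pools 1 of the 5 natriuretic peptide genes fell and 1 rose. Of the 12 genes around Lrtm1, 5 fell there and 3 rose, and of the 2 navigators Nav1 alone rose.

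Profiles over the 24 pools, each scaled to the highest pool of the gene, were compared by the mean absolute difference between genes. Among 9800 candidates outside the 8, the genes closest to their mean profile were 1190002N15Rik (difference 0.0606), the adhesion gene Pvrl3 (0.0649), the Kit ligand gene Kitl (0.0695), Id3, Nedd9, Tmem132c, Bmp7, Tpbg, Gm7694 and Wnt5b (0.0769). Kitl read 23.9 ± 3.75 RPKM in E10.5 GFP positive pools and 3.54, 5.84 and 1.69 on average in E10.5 GFP negative, E13.5 GFP positive and E13.5 GFP negative pools. Corin and Ccdc3 had profiles close to each other (0.0883), Ccdc3 was closer still to the cilia gene regulator Foxj1 (0.0832), and Lrtm1 was closest to the mitotic gene Cenpf (0.0578) and to Cmtm8 (0.0615). The 2 nearest genes of Vtn were Oip5 (0.0711) and Cmtm8 (0.0727), those of Car4 were Cmtm8 (0.0818) and Fam83d (0.0828), and Vtn and Lrtm1 differed by 0.0812. The 2 nearest genes were Klf5 and Dkk2 for Ferd3l, Upp1 and Metrnl for Folr1, Ccdc3 and Atoh8 for Corin, and Tac1 and Foxj1 for Nav3. Vtn and Nav3 were the least alike of all pairs among the 8 (0.284).

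For single cells, presence of a gene means 10 RPKM or more, which in a cell of median depth is about 12.05 reads for Ferd3l and 135.5 for Nav3. Shares carry exact 95% Clopper-Pearson intervals, which cover counting error only, since the libraries held no molecular identifiers and reads do not stand for independent molecules. At E10.5 Vtn was present in 68 cells (49.6%, 40.99 to 58.3), Lrtm1 in 67, Folr1 in 66, Nav3 in 53, Ferd3l in 48, Car4 in 42, Corin in 38 and Ccdc3 in 27 (19.7%, 13.4 to 27.4). Where present, Vtn had a median of 612 RPKM, Nav3 of 213, Folr1 of 209, Car4 of 208, Corin of 112.9, Lrtm1 of 53.7 and Ferd3l of 44.8.

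In cells the share with each of the 8 genes was lower at E11.5 than at E10.5, with intervals that overlap for Ccdc3 and Nav3. More genes were found per cell at E10.5 than at each later stage. The part of this in the shares and in the numbers of the 8 genes per cell at later stages was not tested. Vtn was present in 1 of 90 cells at E11.5 (1.11%, 0.0281 to 6.04), 3 cells at E12.5 (1.69%) and 3 at E13.5 (2.07%). Lrtm1 was present in 7, 2 and 2 cells of these stages. Car4 was present in 1 cell at E11.5, in 0 cells at E12.5, which allows a share of up to 2.05%, and in 1 at E13.5. Ferd3l was present in 6, 10 and 3 cells.

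At E13.5, though not at each stage before it, Folr1, Corin, Ccdc3 and Nav3 were present in more cells than the 4 genes above. Folr1 was present in 11, 8 and 13 cells of the later stages in order (8.97% at E13.5, 4.86 to 14.8), Corin in 4, 6 and 9 (6.21%, 2.88 to 11.46) and Ccdc3 in 9, 8 and 9 (6.21%, 2.88 to 11.46). In the few E13.5 cells that had it, Ccdc3 had a median of 277 RPKM. Nav3 stayed common, in 20, 42 and 43 cells (29.7% at E13.5, 22.4 to 37.8, against 38.7% at E10.5, 30.5 to 47.4, intervals that overlap). Lrtm1 was above 0 in 63 cells at E13.5, of which 2 reached 10 RPKM.

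**Figure D1:**
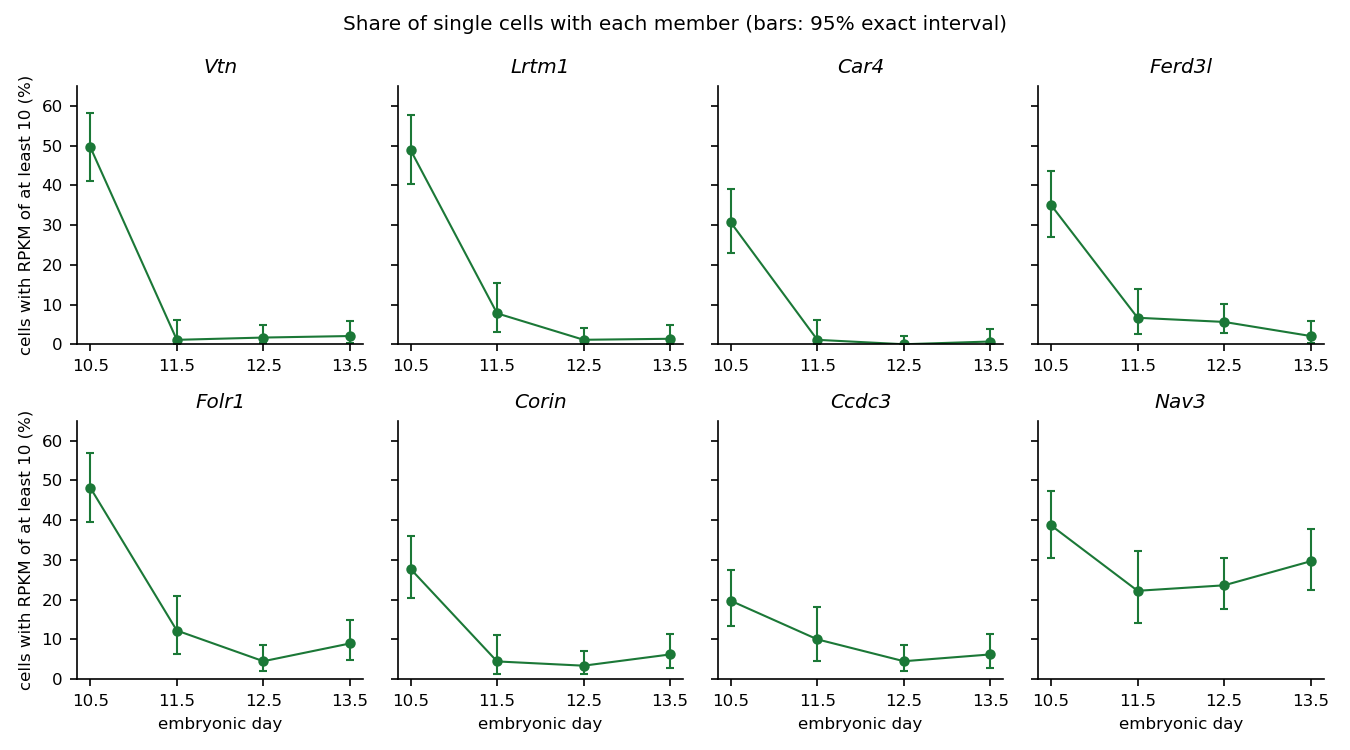
Each panel plots, for 1 gene, the percentage of single cells with an RPKM of at least 10 (vertical axis) against embryonic day (horizontal axis), with exact 95% intervals. Vtn, Lrtm1 and Car4 go from 49.6%, 48.9% and 30.7% at E10.5 to under 8% at E11.5, while Nav3 stays above 22%.

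The genes were present together at E10.5. In all, 52 cells had 4 or more of the 8 (37.96%, 29.8 to 46.6), 11 had all 8 and 28 had none. Later, 5 cells at E11.5 (5.56%, 1.83 to 12.49), 1 at E12.5 (0.562%, 0.0142 to 3.09) and 4 at E13.5 (2.76%, 0.757 to 6.91) had 4 or more, and the most in any cell was 6. Of the cells with either gene of a pair, Corin and Nav3 shared the largest part among the 28 pairs, 59.6%, or 34 cells, which are 89.5% of Corin cells and 64.2% of Nav3 cells. Corin cells lay mostly within Vtn cells (35 of 38), and Ccdc3 cells mostly within Folr1 cells (25 of 27). By the same measure Vtn and Ccdc3 shared the smallest part, 28.4%, or 21 cells, or 30.9% of Vtn cells and 77.8% of Ccdc3 cells.

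**Figure D2:**
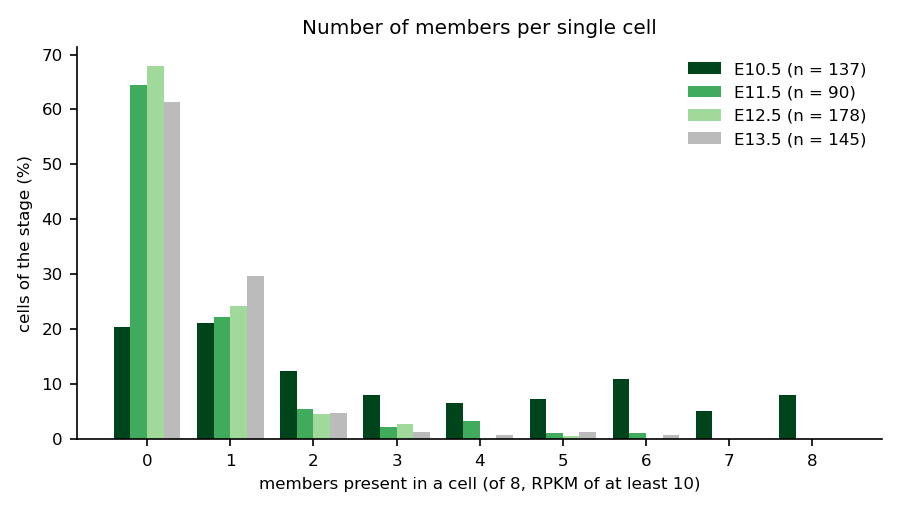
The horizontal axis gives the number of the 8 genes present in a cell at an RPKM of at least 10, and the bars give the percentage of the cells of each stage. Cells with 4 or more genes make up 37.96% of E10.5 cells and at most 5.56% of the cells of a later stage.

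Presence beside Lmx1a and Shh was part of how the genes were chosen and is described here without a test. At E10.5 Lmx1a was present in 98 cells, of which 47 had 4 or more of the 8 genes, against 5 of the 39 cells without Lmx1a. Of the 18 cells with neither Lmx1a nor Shh, 0 had 4 or more and 13 had none. Among cells with a given gene, the share with Lmx1a was 92.9% for Car4, 92.6% for Ccdc3, 90.9% for Folr1, 86.8% for Corin, 86.8% for Nav3, 85.4% for Ferd3l, 79.4% for Vtn and 79.1% for Lrtm1, and the share with Shh ran from 90.6% for Nav3 to 100% for Ccdc3.

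Vtn and Lrtm1 reached beyond the Lmx1a cells. Of the 21 E10.5 cells with Shh and without Lmx1a, 12 had Vtn (57.1%) and 13 had Lrtm1 (61.9%), close to 57.8% and 55.6% of the 90 cells with both Lmx1a and Shh. In those same 21 cells Folr1 was present in 5, Corin in 5, Car4 in 3 and Ccdc3 in 2, against 63.3%, 34.4%, 42.2% and 27.8% of cells with both. Ferd3l was present in 7 of them and Nav3 in 6 (33.3% and 28.6%), against 44.4% and 46.7%. Of the 14 Vtn cells that lacked Lmx1a, 12 had Shh. Split by the reporter, Vtn was present in 52.4% of cells with EGFP and in 14 of 34 without, and Folr1 in 58.3% and in 6 of 34. Of the 68 Vtn cells, 2 had at least 2 of 12 pericyte and mesenchyme genes, against 10 of all E10.5 cells. At least 2 endothelial genes were present in 1 Vtn cell and in 3 of all E10.5 cells. At least 2 red blood cell genes were present in 1 Vtn cell and in 4 of all E10.5 cells. At least 2 microglial genes were present in 0 of all E10.5 cells, so this count cannot set Vtn cells apart.

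E10.5 cells with many of the 8 genes also differed in other genes, though all cells come from 1 sample and no test is given. Foxa2 was present in 90.4% of the 52 cells with 4 to 8 genes, 56.1% of the 57 cells with 1 to 3 and 21.4% of the 28 cells with none. Lmx1b was present in 73.1%, 35.1% and 21.4%, and Wnt5a in 88.5%, 70.2% and 32.1%. Lmx1a and Shh, which the choice used, differed between the sets as well. Lmx1a was present in 90.4%, 66.7% and 46.4%, and Shh in 94.2%, 85.96% and 46.4%. The differences in the other floor plate genes cannot be taken as independent of the choice. The neuronal tubulin Tubb3 ran the other way, in 25%, 59.6% and 64.3%. Barhl1, a gene of the subthalamic lineage, did so as well, in 7.69%, 36.8% and 42.9%. Other neuronal genes did not clearly share this pattern. Stmn2 was present in 3 of 52, 6 of 57 and 3 of 28 cells of these sets. The proneural gene Neurog2 was present in 7, 7 and 1 of them, and Nr4a2 in 5, 4 and 0. The progenitor gene Sox2 was present in 42.3%, 33.3% and 57.1%. Intervals overlap between the sets for Stmn2, Neurog2, Nr4a2 and Sox2. The proliferation marker Mki67 was present at like shares in all 3 sets (53.8%, 47.4% and 50%), and the intervals overlap. Rspo2, which is on the list of other floor plate genes, did not follow Foxa2, Lmx1b and Wnt5a. It was present in 28.8%, 43.9% and 35.7%, with intervals that overlap. The median number of genes at an RPKM of at least 1 was 5932, 5280 and 5565 in these sets, and read depth was not compared between them.

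**Figure D3:**
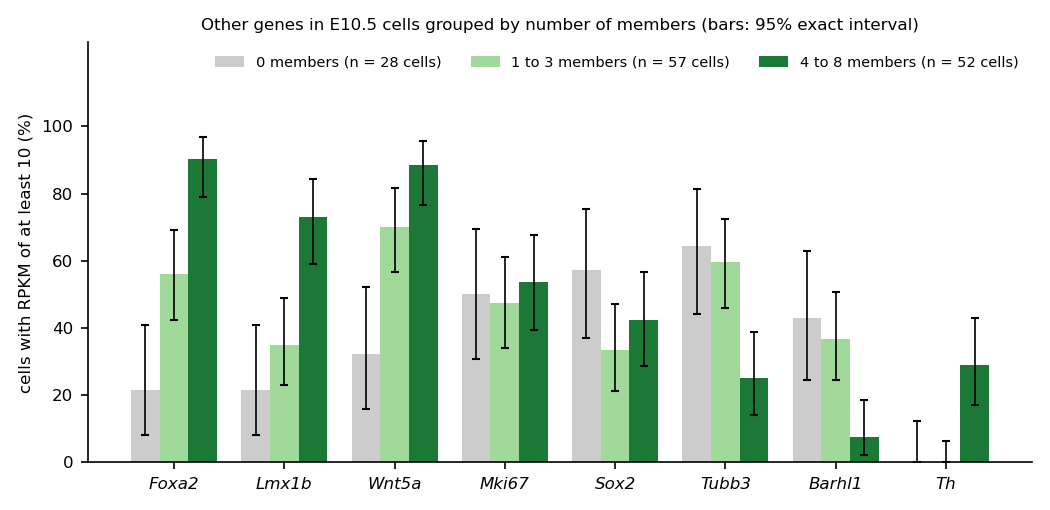
For 8 other genes on the horizontal axis, bars give the percentage of E10.5 cells with an RPKM of at least 10, in cells with none, 1 to 3 or 4 to 8 of the early floor plate genes, with exact 95% intervals. Foxa2, Lmx1b and Wnt5a are most frequent in cells with 4 to 8 genes, Tubb3 and Barhl1 are least frequent there, Mki67 and Sox2 show overlapping intervals, and Th is present in 15 of the 52 cells with 4 to 8 genes and in 0 of the others.

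Over the stages sampled, the share of cells with Stmn2 went from 8.76% at E10.5 to 82.1% at E13.5. Within cells that had Lmx1a and lacked Stmn2, a gate added after seeing the data, 94 cells were left at E10.5 and 14, 26 and 13 at the later stages in order. In the E13.5 cells of this gate Ccdc3 was present in 6 of 13 (46.2%, 19.2 to 74.9), Corin in 5 (38.5%, 13.9 to 68.4) and Folr1 in 5. In the E10.5 cells of the gate the shares were 26.6% for Ccdc3, 34.04% for Corin and 61.7% for Folr1, within or close to the E13.5 intervals. At E12.5 they were present in 4, 2 and 4 of the 26 cells. Car4 and Lrtm1 were present in 0 of the 13 cells, which allows up to 24.7%, against 40.4% and 54.3% at E10.5. Vtn was present in 2 of 13 (15.4%, 1.92 to 45.4) against 55.3%, and in 0 of 26 at E12.5, and Ferd3l in 2 of 13 against 42.6%. The gate was not pure: of the 13 cells 7 had Tubb3, 6 had Barhl1 and 3 had Mki67, and of the 26 at E12.5 21 had Tubb3 and 12 had Nr4a2, a factor of dopamine neurons.

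**Figure D4:**
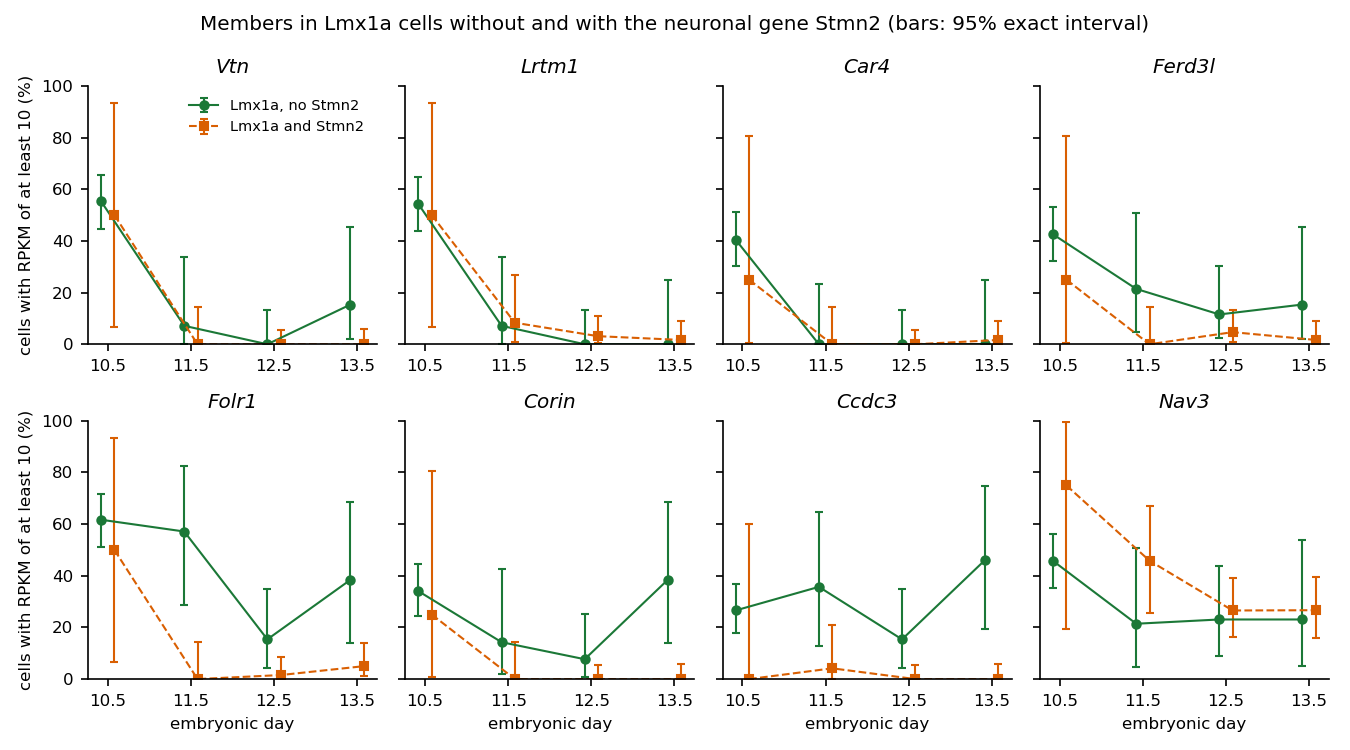
For each gene the percentage of cells with an RPKM of at least 10 (vertical axis) is plotted by embryonic day (horizontal axis) in Lmx1a cells without Stmn2 (94, 14, 26 and 13 cells, solid lines) and with Stmn2 (dashed lines), with exact 95% intervals. Corin, Ccdc3 and Folr1 are present at E13.5 in 38.5%, 46.2% and 38.5% of cells without Stmn2, Car4 and Lrtm1 in none of them, and Nav3 in 26.7% of the 60 E13.5 cells with Lmx1a and Stmn2.

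The late Corin and Ccdc3 cells were in part the same cells, with 7 of 9 shared at E13.5. All 9 Corin cells and all 9 Ccdc3 cells at E13.5 had Shh, and 0 had Stmn2, against 15.4% and 87.5% of the other cells in each case. Msx1 was present in 7 of 9 Corin cells and in 7 of 9 Ccdc3 cells, against 5.15% of the other cells, and Nr4a2, Th and Barhl1 were present in 0. Lmx1a was present in 5 of the 9 Corin cells and Mki67 in 1. Of 19 cells at the 3 later stages with at least 3 of the 8 genes, 17 had Ccdc3, 15 Folr1, 13 Corin, 12 Nav3, 9 Ferd3l, 5 Vtn, 4 Lrtm1 and 0 Car4. These cells mostly had Shh (16 of 19) and EGFP (15), and 2 had Stmn2.

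By E13.5 most Nav3 cells had Stmn2, as did most cells of the stage. Of the 43 Nav3 cells at E13.5, 38 had Stmn2 (88.4%), against 79.4% of the other cells, and 19 had Lmx1a. Nav3 cells with Stmn2 numbered 17 of 20 at E11.5 and 34 of 42 at E12.5. Split by the reporter at E13.5, Nav3 was present in 8 of 39 cells with EGFP and in 35 without (33.02%), whereas Corin was present in 7 with and 2 without and Ccdc3 in 8 and 1. The E13.5 pools leaned the other way for Nav3, without a call between classes. It read 24.7 to 95.5 RPKM in GFP positive and 19.1 to 40.5 in GFP negative pools. The reporter did not follow its gene in every cell, since 36.8% of the E13.5 cells without EGFP had Lmx1a.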

How the data were processed

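Expression was measured in 24 pools of 100 cells and in 550 single cells, with Smart-seq2 and Nextera XT libraries read on an Illumina HiSeq instrument, as the labels' protocols state. The submitters' processing notes name STAR 2.3.0 and the build mm10, while the counter of reads, its annotation and any filter were not given in the sources used here. RPKM values of the pools were deposited by the authors for 23706 genes. For cells the authors deposited log2 values of 25489 genes, formed from RPKM plus 0.001 as the lowest value shows, and these were converted back to RPKM. There were 0 columns without a sample and 0 identical columns, and no doublet caller was run.

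Depths are estimates from the spacing of low values. Only a median of 33.9% (pools) and 32.3% (cells) of low values came within 0.05 of whole reads, so no reads were recovered and no count model was run. Genes reaching 1 RPKM in 6 or more pools (15871) were fitted as log2(RPKM + 1) with limma 3.58.1 in R 4.3.3, all 24 pools in 1 model with a variance trend, and p-values were adjusted over all of them by the Benjamini-Hochberg method, with calls at 0.05. EGFP was compared by exact permutation. Values are means ± SD of RPKM (n = 6 unless given), and log2 differences carry the SE of the model. The fit was checked on simulated data.

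The 8 genes, the lists around them and the alternatives were chosen with earlier results of these data known. The text names the 8 genes, Lmx1a, Shh, EGFP, genes of the lists, the 10 genes nearest to the mean profile and the 2 nearest to each gene, among genes with a group mean of at least 10 RPKM. The values of 1 gene of the lists are not reported here. Other pseudocounts, filters, scalings, model settings, thresholds of presence and left-out pools were tried.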

Additional observations from a re-analysis of the deposited data

Results flagged for a closer look

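In 9 of 41 groups of 6 pools tested, over the 8 genes, Lmx1a, Shh and EGFP, the highest pool lay so far above the next that the gap took more than 0.625 of the group's range. Chance flags about 1 in 20 groups where values have a normal spread. That rate does not hold for groups with most pools at 0, such as Car4 in E13.5 GFP positive pools and Corin in E13.5 GFP negative pools. In E13.5 GFP positive pools these were Corin at 49.6 RPKM, Vtn at 11.7 and Car4 at 0.441, all in replicate 2, and EGFP at 80.3 in replicate 1. In E10.5 pools they were Folr1 at 321.0 RPKM in GFP positive replicate 2 and Vtn at 312.8 in GFP negative replicate 6. In E13.5 GFP negative pools they were Corin at 0.400, Vtn at 1.72 and Shh at 3.55 RPKM, levels under 4 RPKM.

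For 5 genes the change from E10.5 to E13.5 differed between GFP positive and GFP negative pools by the interaction term of the limma model (adjusted p under 0.05), as it did for 1.90% of all tested genes in this direction. With a pseudocount of 0.1 RPKM the call was kept for Nav3 only. The difference of the log2 changes was -1.93 for Ferd3l, -2.82 for Folr1, -2.28 for Car4, -1.47 for Lrtm1 and -3.52 for Nav3. Car4, Lrtm1 and Ferd3l were at or near 0 in both classes at E13.5, so their terms mostly restate the class difference at E10.5. The term of Nav3 includes its rise of 2.39 in GFP negative pools. The contrast combines others that were used to choose the genes, so it is given as a description.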

How the results depend on the processing

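No paired analysis was possible because the replicate numbers of the pools are names given in accession order and pair no samples. Over 1272 alternative values of the log2 differences of the 8 genes, 1247 kept their side of the threshold, 14 were no longer called, 11 became called and 0 called values changed sign. Of the counts of called genes, 1 moved by more than 1.5 times: the stage by GFP interaction called 1 of 8 genes with a pseudocount of 0.1 RPKM (5 otherwise). Of 336 alternative values of the share of cells with a single gene, 57 moved outside the interval of the value in the text, as did 8 of 44 of the share with 4 or more genes. Leaving out each pool in turn gave 7 to 8 genes called lower in GFP positive pools over time, 3 to 6 in GFP negative pools (3 without E10.5 GFP negative replicate 6, 6 without replicate 5, against 4), 8 to 8 (E10.5) and 4 to 5 (E13.5) called higher in the GFP positive class, and 5 to 5 for the interaction. Ccdc3 was no longer called in GFP positive pools over time without E13.5 replicate 1 (-0.91), nor were Corin (-1.43) and Ccdc3 (-1.29) with a pseudocount of 0.1. The share of E10.5 cells with 4 or more of the 8 genes was 50.4% with presence at an RPKM of at least 1, 28.5% at 50 and 62.8% above 0, and in Lmx1a cells 62.04%, 35.9% and 74.3%. Presence above 0 was added after seeing the data and gave 8.97% at E13.5, and E12.5 cells with titles starting with F gave 0. Rescaling pools to a common sum changed the split of all calls in GFP negative pools over time from 3126 higher and 4262 lower to 3736 and 3577. The median log2 change of all tested genes over time was -0.14 in GFP positive pools and -0.03 after median-ratio scaling, a shift smaller than the change of any gene named as changed. Low depth limits what can be said of genes under 1 RPKM and of the E11.5 cells.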

Other observations

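Th, the enzyme that makes the dopamine precursor, was present in E10.5 cells that carried the early floor plate genes, a relation noticed after its values were seen. Of the 52 cells with 4 to 8 of the 8 genes, 15 had Th (28.8%, 17.1 to 43.1), with values between 14.4 and 1874 RPKM and a median of 208. Of the 85 cells with 0 to 3 genes, 0 had it, which allows up to 4.25%, although 8 were above 0. Of the 11 cells with all 8 genes, 8 had Th. The 15 Th cells had Lmx1a in 15 and Shh in 14, Nr4a2 in 2, Ddc in 4 and Stmn2 in 0. All cells of the stage are 1 sample, and no test was made.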
